A study of Mus musculus with 18 samples.

Results

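The subunits of the mitochondrial respiratory chain and ATP synthase were followed in RNA from mouse donor T cells, for the share of each complex made from nuclear genes and the share made from mitochondrial DNA. Members were chosen by gene symbol alone: names that begin with Nduf and a subunit letter and number (complex I), Sdha to Sdhd (complex II), Uqcr and Cyc1 (complex III), Cox4 to Cox8 (complex IV) and Atp5a to Atp5o (complex V), and the mt-Nd, mt-Co, mt-Cytb and mt-Atp genes of mitochondrial DNA. The rule itself used no expression values, but it was chosen with earlier results of these data known. It matched 101 rows, of which 4 pseudogene rows were dropped, each with at most 37 reads in any library. This left 97 members of 46073 genes in the table. Nuclear DNA held 84 of them, with 35 in complex I, 4 in complex II, 10 in complex III, 20 in complex IV and 15 in complex V. Mitochondrial DNA held 13, with 7 in complex I, 1 in complex III, 3 in complex IV and 2 in complex V. Ndufa4 and Ndufa4l2 were counted in complex IV, where the Ndufa4 protein sits.

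The respiratory chain passes electrons from NADH (complex I) and succinate (complex II) through ubiquinone, complex III and cytochrome c to oxygen at complex IV, and complex V uses the proton gradient so built to make ATP. All complexes except complex II are mosaics of subunits from both genomes, and the mitochondrial DNA is transcribed as long transcripts that are cut into separate messages. Resting T cells rely largely on oxidative phosphorylation, and activated T cells add aerobic glycolysis while enlarging their mitochondria.

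Total RNA was sequenced from donor T cells taken from spleen on day 7 after haematopoietic stem cell transplantation, in a comparison of Wapl KO with WT donor cells and of allogeneic with syngeneic recipients. The 4 groups of 3 libraries were allogeneic KO, allogeneic WT, syngeneic KO and syngeneic WT. Wapl releases cohesin rings from chromatin. WT donors were female C57BL/6 mice (CD45.2) of 8 to 12 weeks, and the labels give neither the Wapl allele nor a Cre driver for the KO donors. Allogeneic recipients were CByJ.SJL(B6)-Ptprca/J mice that received 8 Gy and 1000000 donor splenic T cells, against 9.5 Gy and 8500000 T cells for syngeneic B6.SJL-Ptprca Pepcb/BoyJ recipients. Recipients, female and also 8 to 12 weeks old, all received 5000000 T-cell-depleted marrow cells. Recipient strain, radiation dose and T-cell dose therefore cannot be told apart in any allogeneic against syngeneic comparison. Each library came from a pool of 2 to 4 mice, and live cells positive for CD3 and CD45.2 were collected by flow sorting. The marrow also came from C57BL/6 donors, whose cells carry CD45.2 too.

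Libraries held between 45965659 and 89007100 counted reads. Wapl, listed as Wapal, had 145, 124 and 151 CPM (reads per 1000000 counted, after TMM scaling of the library sizes) in allogeneic KO libraries, against 169, 156 and 158 CPM in allogeneic WT libraries. It had 127, 139 and 137 CPM in syngeneic KO libraries, against 170.1, 211 and 183 CPM in syngeneic WT libraries. KO libraries lay below WT libraries in both settings, while Wapl RNA was still present, and the fall passed the test in the syngeneic setting only (log2 fold change -0.48 ± 0.11 (SE), edgeR adjusted p = 0.0368, against -0.20 ± 0.11 and adjusted p = 0.963 in the allogeneic setting). The 10 T-cell markers (Cd3e, Lck and others) together reached 3452 to 5422 CPM in allogeneic KO, 3724 to 4214 CPM in allogeneic WT, 2966 to 4863 CPM in syngeneic KO and 2662 to 3577 CPM in syngeneic WT libraries. The 10 red cell precursor markers found in the table (globins, Alas2 and others) summed to 25.2 to 39.8 CPM in allogeneic KO, 20.4 to 72.6 CPM in allogeneic WT and 32.3 to 127 CPM in syngeneic KO libraries, against 2206 to 5126 CPM in syngeneic WT libraries. The 12 myeloid markers summed to 181 to 343 CPM in allogeneic KO, 324 to 548 CPM in allogeneic WT, 28.7 to 346 CPM in syngeneic KO and 249 to 775 CPM in syngeneic WT libraries. In bulk RNA of this kind fewer cells of a type and less RNA per cell cannot be told apart.

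Of the 13 mitochondrial genes, 5 were almost without reads, although their neighbours on the mitochondrial chromosome had many. mt-Co2, which encodes a catalytic core subunit of complex IV, had 2 to 16 reads per library. mt-Atp6 had 2 to 11, mt-Co3 0 to 11, mt-Nd4l 0 to 7 and mt-Nd3 0 to 4 reads per library. mt-Co1, whose gene precedes mt-Co2 on the chromosome, had 63337 to 129550 reads. Each of these 5 genes has a copy on mouse chromosome 1 (GRCm38) that matches it without a mismatch over 98.3% to 99.9% of its length. The copies were themselves almost empty, with at most 6 reads in any library. The opening 60 bases of mt-Co2 (GRCm38 chrM:7013-7072, plus strand) and of its copy Gm28661 (chr1:24615506-24615565, minus strand) are shown because a read from either could not be assigned by sequence. They are written in lower case without capitals, since no base differs.
mt-Co2: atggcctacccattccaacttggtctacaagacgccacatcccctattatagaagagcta
Gm28661: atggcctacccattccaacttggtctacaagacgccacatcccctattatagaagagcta

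Copies covered part of mt-Co1 (31.3% of the gene, by Gm29216) and of mt-Nd4 (63.6%, by Gm28439), and mt-Nd4 had 10285 to 24389 reads. No copy of this kind was listed for mt-Nd1, mt-Nd2, mt-Nd5, mt-Nd6, mt-Cytb or mt-Atp8. The rule by which reads with several matches were counted is not given in the sources used here, and its part in the near-zero counts was not tested. Levels of mt-Co2, mt-Atp6, mt-Co3, mt-Nd3 and mt-Nd4l are therefore not read as expression below, and the level of mt-Nd4 and mt-Co1 may be understated. The remaining mitochondrial genes kept their reads in every library.

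**Figure D1:**
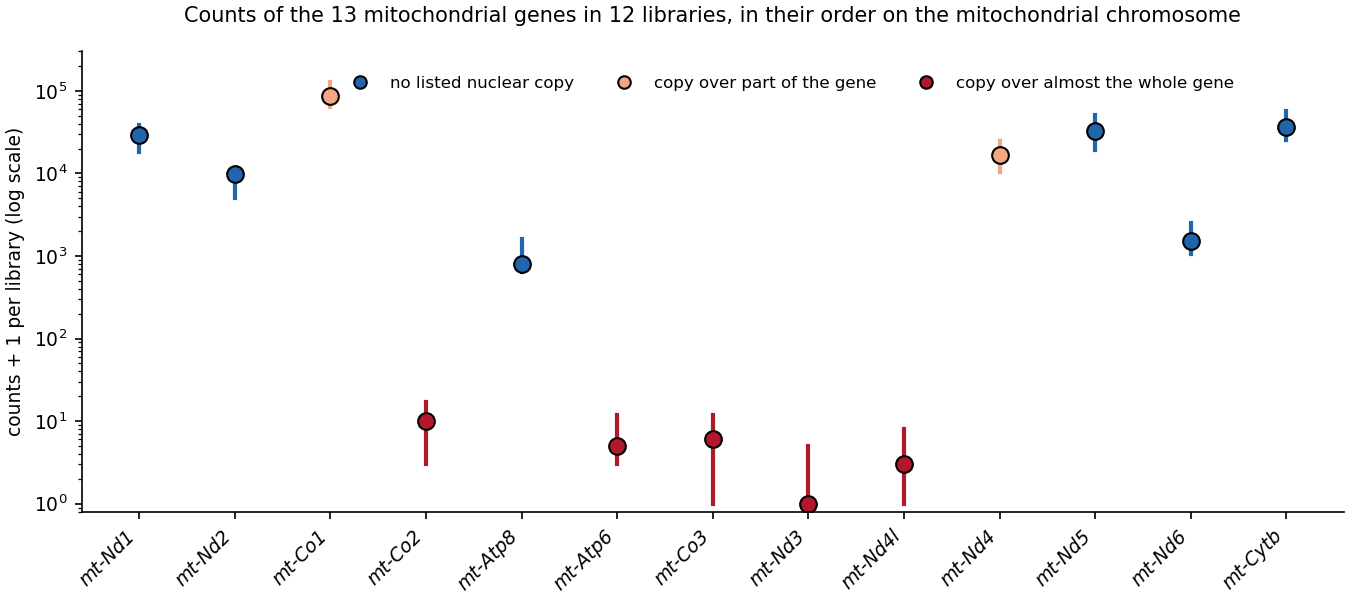
Reads counted for the 13 mitochondrial genes, in their order along the mitochondrial chromosome (x), with the median (point) and the range (line) over 12 libraries on a log axis of counts + 1 (y). The 5 genes with a copy over almost the whole gene stayed at or under 16 reads, while the 8 others had 635 to 129550 reads.

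Each of 3 promoter motifs, which the symbol rule did not use, was present in a minority of the nuclear members, and no test of enrichment was made. Promoters from 250 bases before to 50 bases after the start of the gene were found for 66 nuclear members in the RefSeq table (GRCm38.p6). The NRF1 motif (GCGC, then NN, which stands for any pair of bases, then GCGC), bound by nuclear respiratory factor 1, was present on either strand in 17 of 66 (25.8%), against 8.80% of 17492 promoters of the same length. The ETS motif CCGGAAG, the kind bound by GABPA, was present in 15 (22.7%, against 11.9%). The YY1 motif AAGATGGCG was present in 6 (9.09%, against 1.94%). Of the 66 promoters 33 held none of the 3 motifs. A match is a match of letters only, and nothing here measured binding. The promoters of Ndufb7 and Ndufs8, which had the highest log2 fold changes of the nuclear complex I subunits between allogeneic and syngeneic WT cells, and of Cox5a are shown 5′ to 3′ along the gene, with an ETS match in capitals (on the opposite strand in Ndufs8). Their positions are chr8:83566508-83566807 (plus strand), chr19:3912725-3913024 (minus strand) and chr9:57520982-57521281 (plus strand). The Cox5a window held no match to any of the 3 motifs.
Ndufb7: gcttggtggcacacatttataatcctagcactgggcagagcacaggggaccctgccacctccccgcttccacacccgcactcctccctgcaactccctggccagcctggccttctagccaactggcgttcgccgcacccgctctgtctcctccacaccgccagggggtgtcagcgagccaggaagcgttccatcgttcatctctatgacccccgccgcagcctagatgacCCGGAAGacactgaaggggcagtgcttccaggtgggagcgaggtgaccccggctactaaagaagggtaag
Ndufs8: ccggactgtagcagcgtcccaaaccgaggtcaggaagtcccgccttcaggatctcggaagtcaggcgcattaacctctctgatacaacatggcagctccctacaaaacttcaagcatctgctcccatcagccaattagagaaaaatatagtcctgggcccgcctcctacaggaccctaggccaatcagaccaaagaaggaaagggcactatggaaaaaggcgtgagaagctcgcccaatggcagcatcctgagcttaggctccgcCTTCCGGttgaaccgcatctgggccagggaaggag
Cox5a: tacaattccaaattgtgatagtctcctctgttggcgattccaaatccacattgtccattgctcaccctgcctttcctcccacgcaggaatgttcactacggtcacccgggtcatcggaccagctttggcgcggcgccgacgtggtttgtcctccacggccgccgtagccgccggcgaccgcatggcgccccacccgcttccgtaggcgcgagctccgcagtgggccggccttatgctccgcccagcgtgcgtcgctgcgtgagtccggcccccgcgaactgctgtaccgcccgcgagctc

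T cells expressed nearly the whole chain. Of the 97 members, 88 had enough reads to be tested (79 nuclear and 9 mitochondrial), among 18447 genes tested. Cox7b2, Cox8b, Cox8c, Ndufa4l2 and a second identifier of Uqcrc1 were not tested, and neither were mt-Atp6, mt-Co3, mt-Nd3 and mt-Nd4l. Levels of different genes were compared per kilobase of annotated exons (RPKM, CPM divided by the length in kilobases), as a mean over 12 libraries. mt-Co1 was highest at 963 RPKM, followed by mt-Cytb at 561 RPKM, mt-Nd1 at 495 RPKM and mt-Nd5 at 299 RPKM, and the lowest library of mt-Co1 (767 RPKM) lay above the highest of mt-Cytb (744 RPKM), while mt-Cytb, mt-Nd1 and mt-Nd5 overlapped with their neighbours in that order. The highest nuclear members were Cox8a (257 RPKM), the ATP synthase alpha subunit gene Atp5a1 (216 RPKM), Cox6b1 (202 RPKM), the beta subunit gene Atp5b (194 RPKM) and Cox6a1 (183 RPKM). The ranges of these 5 over the libraries also overlapped. Compared within each library, mt-Nd1 always lay above mt-Nd5, and Cox8a was always the highest of these 5. Over 10 RPKM were 69 of the 79 tested nuclear members. The median tested nuclear subunit stood at 28.8 RPKM in complex I, 46.1 in complex II, 45.1 in complex III, 44.9 in complex IV and 46.9 in complex V.

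Complex IV is the complex with most tissue-restricted subunit isoforms, and these T cells used the common ones. Cox6a2 and Cox7a1, the heart and muscle isoforms, made up 0.0160% to 0.680% of the summed RPKM of Cox6a1 and Cox6a2 and 0.335% to 1.5% of that of Cox7a1 and Cox7a2 across the 12 libraries. Cox6b2, known from testis, made up 0.155% to 2.58% of the Cox6b pair. Cox4i2, a lung and hypoxia isoform, made up 0.00674% to 0.206% of the Cox4i pair. Cox8b took at most 0.112% beside Cox8a, and Ndufa4l2, a hypoxia-induced isoform, 0.0360% to 0.343% beside Ndufa4. Cox7b2 and Cox8c had no read in any library, which at the smallest library allows up to 3 reads each. ATP synthase subunit c, which forms the rotor ring, is made from 3 genes with the same mature protein. Atp5g3 gave 50.9% to 62.6% of their summed RPKM and Atp5g1 6.25% to 10.5%.

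Summed over members, nuclear-encoded subunits took more of the reads in allogeneic than in syngeneic WT libraries, and mitochondrially encoded subunits less. Nuclear members summed to 7811, 10555 and 5887 CPM in allogeneic KO libraries, 8152, 6258 and 6214 CPM in allogeneic WT libraries, 8732, 6009 and 5740 CPM in syngeneic KO libraries and 5862, 4894 and 5396 CPM in syngeneic WT libraries. Every allogeneic WT library was above every syngeneic WT library, and the KO groups overlapped each other and the WT group of their setting. Mitochondrially encoded members summed to 3435, 2523 and 4107 CPM in allogeneic KO, 2792, 3215 and 3298 CPM in allogeneic WT, 3725, 3805 and 4577 CPM in syngeneic KO and 4002, 4414 and 3488 CPM in syngeneic WT libraries. Every allogeneic WT library was below every syngeneic WT library. This sum includes mt-Co2, mt-Atp6, mt-Co3, mt-Nd3 and mt-Nd4l, which had at most 16 reads each in any library and are not read as expression. The mitochondrial sum and the ratio below therefore rest on the other mitochondrial genes, and their level may be understated. The ratio of the mitochondrially encoded to the nuclear-encoded sum was 0.459 ± 0.230 in allogeneic KO, 0.462 ± 0.104 in allogeneic WT, 0.619 ± 0.186 in syngeneic KO and 0.744 ± 0.138 in syngeneic WT libraries (SD, n = 3 each). It ran from 0.239 in allogeneic KO replicate 2 to 0.902 in syngeneic WT replicate 2.

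**Figure D2:**
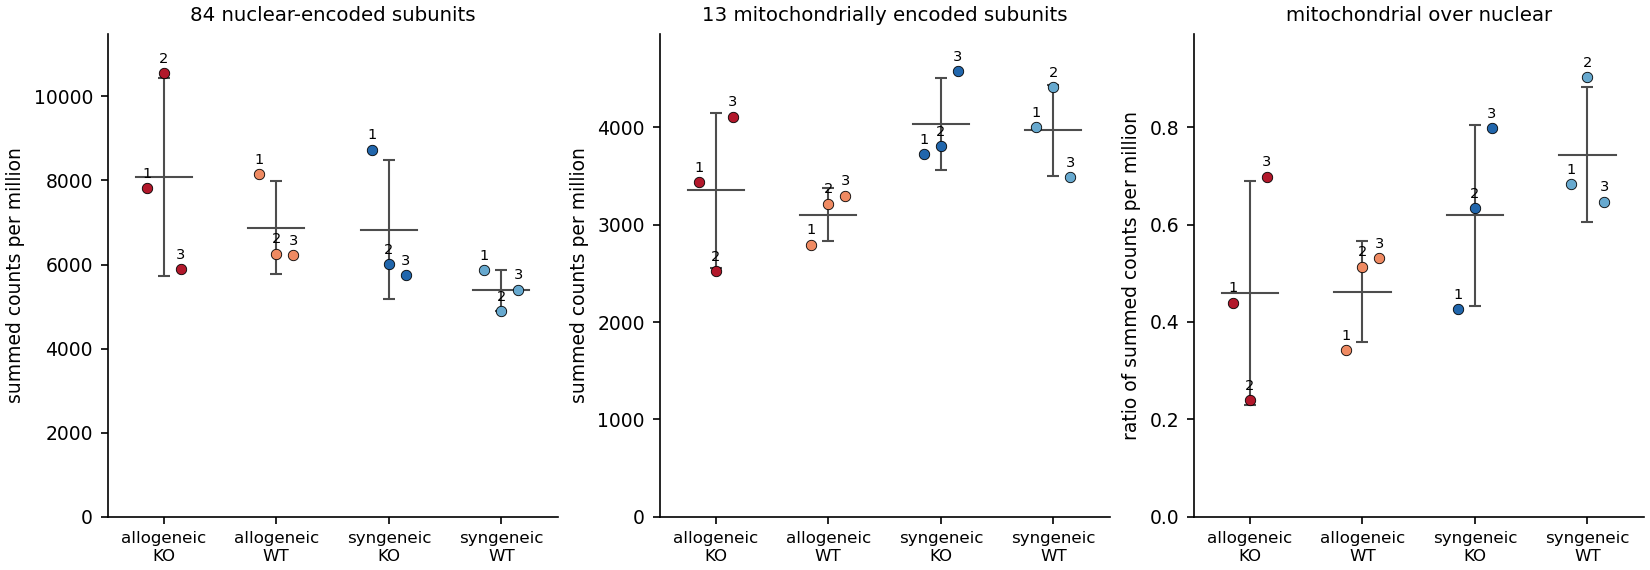
Summed CPM of the 84 nuclear-encoded members (left) and the 13 mitochondrially encoded members (middle), and their ratio (right), in each library (numbered points) with the group mean (bar) and SD (whisker). Allogeneic KO replicate 2 had the highest nuclear sum (10555 CPM) and the lowest mitochondrial sum (2523 CPM). Of the 13 mitochondrial members mt-Co2, mt-Atp6, mt-Co3, mt-Nd3 and mt-Nd4l were almost without reads and added almost nothing to the sum.

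The levels of nuclear subunits moved together from library to library. Of the 79 tested, 20 had exons of at most 1000 bases, 38 of between 1000 and 2500 bases and 21 of more than 2500 bases. The median nuclear member lay 0.77 (log2) above its own 12-library mean in allogeneic KO replicate 2 and 0.42 above it in syngeneic KO replicate 1. In the same libraries the median of 236 other protein-coding genes with exons of at most 1000 bases lay 0.76 and 0.31 above. Protein-coding genes with more than 7000 bases of exons lay 0.18 and 0.06 below. Nuclear members over 2500 bases, 21 genes, still lay 0.70 and 0.36 above, close to the 20 members of at most 1000 bases (0.80 and 0.43), and members of intermediate length lay 0.78 and 0.43 above. Other protein-coding genes lay 0.46 and 0.23 above at between 1000 and 2500 bases, and 0.12 and 0.05 above at between 2500 and 7000 bases. In both libraries members longer than 1000 bases therefore lay above other genes of such lengths. In syngeneic WT replicates 1, 2 and 3 the nuclear members lay at -0.19, -0.46 and -0.32, against -0.18, -0.36 and -0.18 for other short genes. Ribosomal RNA took 8.27% to 32.1% of the reads, with the highest share in syngeneic KO replicate 1. What sets this pattern was not tested. Results below are therefore given also with the length trend removed, or without those 2 libraries, where this changed a count by over 1.5 times or a direction.

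The comparison of allogeneic with syngeneic WT cells asked how donor T cells differed between transplant settings that differ in recipient strain, radiation dose and T-cell dose together. Ndufb7, Ndufs8, Cox5a and Cox7a1 were among the members that rose in allogeneic WT cells, and Cox6a2, Cox6b2 and mt-Nd2 fell. Of the 88 tested members 5 were called higher and 3 lower (edgeR, adjusted p under 0.05 over all genes tested), 9.09% in all, against 32.3% of all 18447 genes, of which 16.4% were called higher and 15.9% lower. The median log2 fold change was 0.37 for the 79 nuclear members and -0.38 for the 9 mitochondrial ones, against -0.03 for all genes tested. Positive values were found for 73 of 79 nuclear members and for 0 of 9 mitochondrial members, which include mt-Co2. Without mt-Co2 the mitochondrial median was -0.42. The nuclear median was 0.22 with the length trend removed and 0.23 without allogeneic WT replicate 1, and the mitochondrial median was -0.24 without syngeneic WT replicate 2. The groups did not overlap for 45 members that were higher and 7 that were lower, that is 52 of 88, against 28.2% and 27.5% of all genes, and 27 members had an unadjusted p under 0.05, against 43.2% of all genes. Between the same groups 10 of 10 red cell precursor markers were called lower (median log2 fold change -7.58), 5 of 12 myeloid markers were called lower (median -1.11), and 2 of 10 T-cell markers were called higher, with 10 of 10 positive (median 0.41). Their part in the members' values was not tested.

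Ndufb7 and Ndufs8, which passed, belong to different arms of complex I. Ndufb7, a subunit of the membrane arm that faces the intermembrane space, had 98.9, 77.7 and 73.0 CPM in allogeneic WT libraries, against 48.8, 41.7 and 49.4 CPM in syngeneic WT libraries. The groups did not overlap, and the log2 fold change was 0.83 ± 0.23 (SE; edgeR adjusted p = 0.0136). Ndufs8, an iron-sulfur subunit of the peripheral arm that carries electrons towards ubiquinone, had 84.5, 64.1 and 60.7 CPM in allogeneic WT libraries, against 46.1, 36.6 and 43.3 CPM in syngeneic WT libraries. It too separated the groups, with a log2 fold change of 0.73 ± 0.24 (edgeR adjusted p = 0.0334). Among the 35 complex I genes the log2 fold change ran between 0.83 for Ndufb7 and -0.01 for Ndufa5. Further complex I genes passed in other fits. Ndufa1, for one, passed with DESeq2, with the replicate number as a block, with the length trend removed and with the 6 WT libraries fitted alone.

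In complex IV the called genes went both ways. Cox5a, a subunit of the matrix side, had 67.1, 49.5 and 52.0 CPM in allogeneic WT libraries, against 38.1, 31.3 and 35.8 CPM in syngeneic WT libraries, a log2 fold change of 0.68 ± 0.22 (edgeR adjusted p = 0.0316). Cox7a1 had 0.521, 0.315 and 0.439 CPM in allogeneic WT libraries, against 0.171, 0.0856 and 0.170 CPM in syngeneic WT libraries, a log2 fold change of 1.55 ± 0.50 (edgeR adjusted p = 0.0304). Both genes separated the groups, but Cox7a1 did so at under 1 CPM, and its common partner Cox7a2 had a log2 fold change of 0.41 ± 0.28 that did not pass (edgeR adjusted p = 0.282).

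Cox6a2 and Cox6b2 fell in allogeneic WT cells. Cox6a2 had 0.121, 0.0305 and 0.0845 CPM in allogeneic WT libraries, against 0.218, 0.599 and 0.698 CPM in syngeneic WT libraries, a log2 fold change of -2.73 ± 0.64 (edgeR adjusted p = 0.00595). Cox6b2 had 1.09, 0.621 and 0.794 CPM in allogeneic WT libraries, against 1.57, 3.25 and 4.09 CPM in syngeneic WT libraries, a log2 fold change of -1.83 ± 0.44 (edgeR adjusted p = 0.00674). In both genes syngeneic WT replicates 2 and 3 were the highest of the 12 libraries. Among the other common subunits of complex IV, Cox4i1, Cox8a, Cox7b and Ndufa4 had log2 fold changes of 0.60, 0.54, 0.33 and 0.16, and the assembly-related isoform Cox7a2l had -0.00 (SE 0.28, 0.21, 0.27, 0.25 and 0.31), none of which passed (edgeR adjusted p between 0.0691 and 0.995). The common partners Cox6a1 and Cox6b1 had log2 fold changes of 0.37 ± 0.22 and 0.69 ± 0.28 and did not pass (edgeR adjusted p = 0.219 and 0.0825). These complex IV values are from the fit of all 12 libraries. Cox5b passed with DESeq2, with the replicate number as a block and with the length trend removed. Cox6b1 and Cox8a passed with the length trend removed. With the 6 WT libraries fitted alone Cox4i1, Cox5b, Cox6a1, Cox6b1, Cox6c, Cox7a2, Cox7c and Cox8a passed too. Red cell precursor markers were also highest in the syngeneic WT libraries (2206, 5126 and 4385 CPM in replicates 1, 2 and 3), and myeloid markers summed to 249, 754 and 775 CPM in those libraries. Siglech, a plasmacytoid dendritic cell marker picked after its values were seen, had 0.653, 1.44 and 1.64 CPM there and at most 0.139 CPM in the other 9 libraries. The part of other cell types in the 2 isoforms was not tested.

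**Figure D3:**
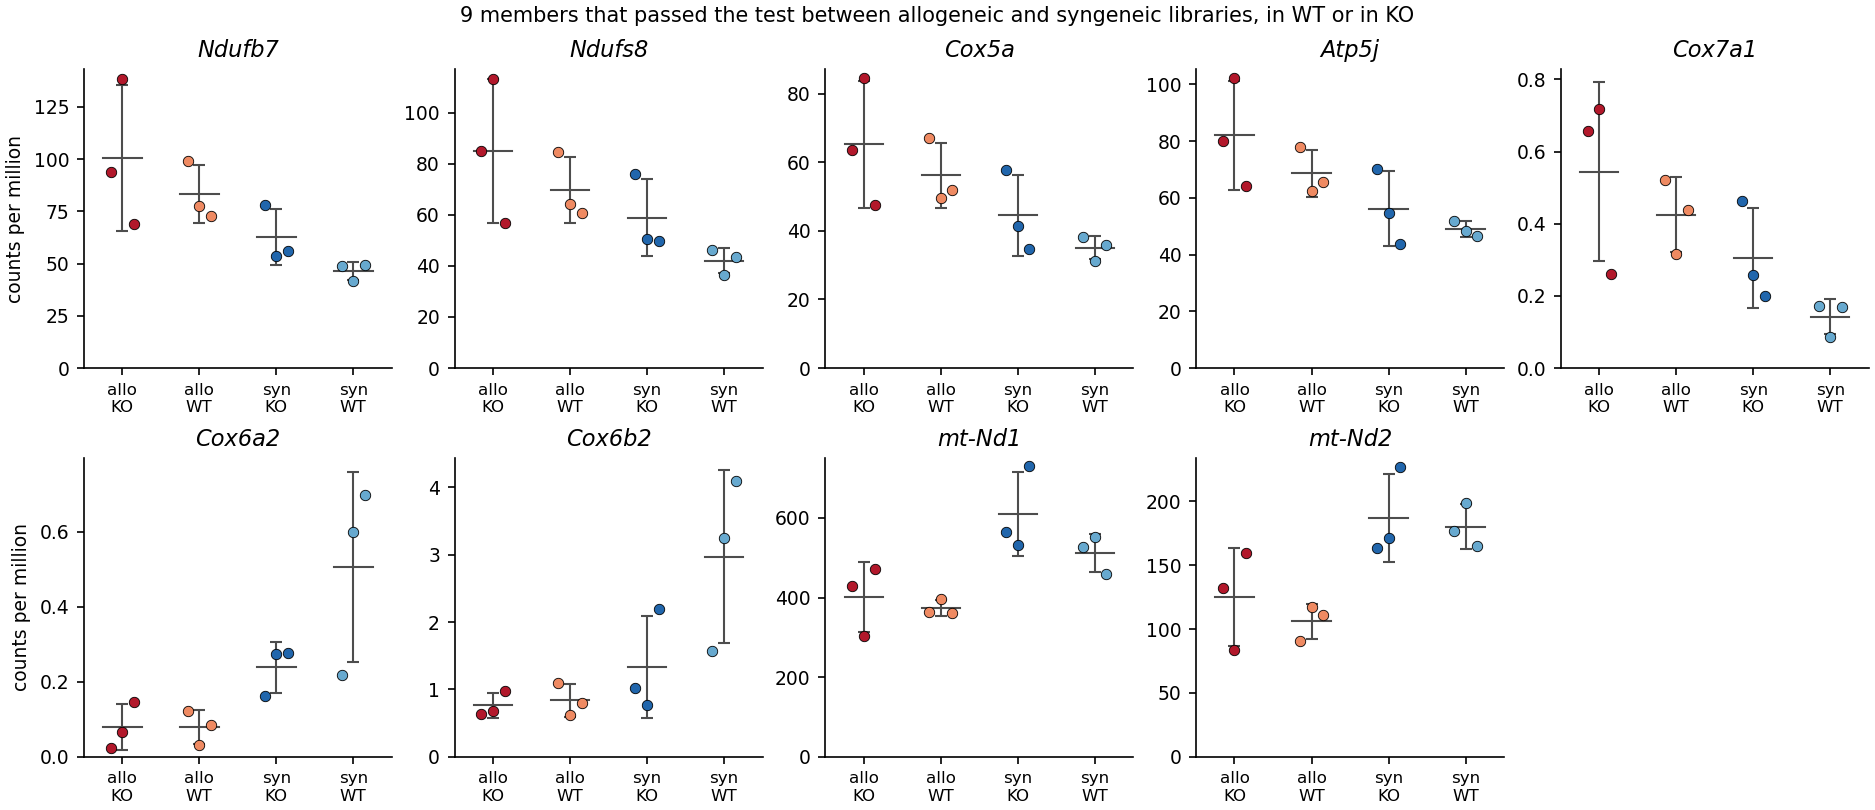
CPM of 9 members called between allogeneic and syngeneic libraries in either genotype, in each library (points, replicates 1 to 3 from left to right), with the group mean (bar) and SD (whisker), each panel on its own axis from 0. Ndufb7, Ndufs8, Cox5a and Cox7a1 stood higher in allogeneic than in syngeneic WT libraries without overlap, while Cox6a2, Cox6b2 and mt-Nd2 stood lower.

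ATP synthase had no called member in WT cells in the fit of all 12 libraries, to which the values below belong. Atp5j passed with DESeq2, with the replicate number as a block and with the length trend removed, and Atp5d with the block. With the 6 WT libraries fitted alone Atp5a1, Atp5c1, Atp5d, Atp5f1, Atp5j, Atp5k and Atp5l passed. Atp5a1 had 823, 641 and 631 CPM in allogeneic WT libraries, against 581, 499 and 543 CPM in syngeneic WT libraries, which did not overlap, with a log2 fold change of 0.37 ± 0.17 that did not pass (edgeR adjusted p = 0.124). Atp5b had 938, 689.7 and 730.0 CPM in allogeneic WT libraries, against 753, 657 and 729.9 CPM in syngeneic WT libraries, which overlapped (log2 fold change 0.14 ± 0.20, edgeR adjusted p = 0.611). In complex V the log2 fold changes ran between 0.49 ± 0.22 for Atp5c1, the central stalk subunit gamma, and -0.01 ± 0.20 for Atp5g1, and 0 of 15 genes passed.

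Complex II, which has no mitochondrially encoded subunit, had no called member in the fit of all 12 libraries either. Sdhb passed with DESeq2, with the replicate number as a block and with the length trend removed, and Sdhd with the length trend removed. With the 6 WT libraries fitted alone Sdhb, Sdhc and Sdhd passed. Values below are from the 12-library fit. The iron-sulfur subunit Sdhb had 138, 107 and 98.1 CPM in allogeneic WT libraries, against 81.8, 65.8 and 75.5 CPM in syngeneic WT libraries. The groups did not overlap, and the log2 fold change was 0.62 ± 0.24 (edgeR adjusted p = 0.0634). The flavoprotein subunit Sdha had 179, 162 and 177 CPM in allogeneic WT libraries, against 191, 165 and 169.6 CPM in syngeneic WT libraries, which overlapped (log2 fold change -0.02 ± 0.12). The membrane anchors Sdhc and Sdhd had log2 fold changes of 0.32 ± 0.17 and 0.51 ± 0.21. None of the 4 genes passed, with edgeR adjusted p of 0.158 for Sdhc, 0.085 for Sdhd and 0.919 for Sdha. In complex III, cytochrome c1 (Cyc1) had 0.10 ± 0.19 and the Rieske iron-sulfur protein gene Uqcrfs1 0.45 ± 0.21, within a range from 0.08 ± 0.20 for Uqcrb to 0.52 ± 0.30 for Uqcr10, and 0 of 9 genes passed. Uqcrc1 passed with DESeq2 and with the replicate number as a block, and Uqcrc1 and Uqcrfs1 with the 6 WT libraries fitted alone.

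Of the mitochondrially encoded messages mt-Nd2, a membrane-arm subunit of complex I, fell in allogeneic WT cells, and the other 7 read as expression had negative values that did not pass in the fit of all 12 libraries. mt-Nd1 passed with DESeq2 and with the length trend removed, and mt-Nd1, mt-Nd4 and mt-Nd5 with the 6 WT libraries fitted alone. Values below are from the 12-library fit. mt-Nd2 had 90.9, 117 and 111 CPM in allogeneic WT libraries, against 177, 199 and 165 CPM in syngeneic WT libraries. The groups did not overlap, and the log2 fold change was -0.76 ± 0.21 (edgeR adjusted p = 0.0141). mt-Nd1 had 363, 397 and 360.3 CPM in allogeneic WT libraries, against 526, 552 and 459.8 CPM in syngeneic WT libraries, also without overlap, and narrowly missed the threshold (-0.46 ± 0.17, edgeR adjusted p = 0.058). mt-Nd4, mt-Nd5 and mt-Cytb also separated the groups, at -0.45 ± 0.18, -0.45 ± 0.22 and -0.38 ± 0.20, without passing. mt-Co1 had 1237, 1318 and 1429 CPM in allogeneic WT libraries, against 1583, 1701 and 1362 CPM in syngeneic WT libraries, which overlapped (-0.22 ± 0.16). mt-Nd6, the only one of these messages read from the other strand, and mt-Atp8 had -0.34 ± 0.23 and -0.03 ± 0.26. mt-Nd5 and mt-Nd6 overlap at their ends on opposite strands, and whether the counting used strand is not given in the sources used here.

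The number of members called between WT groups changed with the libraries in the fit. It fell to 2 without allogeneic WT replicate 1 or syngeneic WT replicate 2 and to 4 without syngeneic WT replicate 3, and it was 24 to 28 without syngeneic KO replicate 1, allogeneic KO replicate 2 or allogeneic KO replicate 3, which are not part of the comparison. With the 6 WT libraries fitted alone it was 41 higher and 6 lower, as many as without allogeneic KO replicate 2 and syngeneic KO replicate 1 together. With the length trend removed it was 18 higher and 4 lower, and all 8 called members were among those called in each of these fits. Cox6a2 and Cox6b2 passed in each of the 6 fits with a WT library left out. Ndufb7 and mt-Nd2 missed without allogeneic WT replicate 1 or syngeneic WT replicate 2, Cox5a and Ndufs8 without these or syngeneic WT replicate 3, and Cox7a1 without any but allogeneic WT replicate 2 (highest edgeR adjusted p 0.0603, 0.0636, 0.124, 0.130 and 0.120 for Ndufb7, mt-Nd2, Cox5a, Ndufs8 and Cox7a1).

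The same comparison in KO cells had fewer called members, and the groups overlapped for most members. Called higher were 2 members and lower 1 of 88 (edgeR, adjusted p under 0.05), or 3.41%, against 24.4% of all genes (13.2% higher and 11.2% lower). The median log2 fold change was 0.26 for nuclear and -0.28 for mitochondrial members, against -0.02 for all genes, and -0.31 for mitochondrial members without mt-Co2. Groups did not overlap for 0 members that were higher, against 17% of all genes, and for 4 that were lower, against 16.6%. The comparison shares no library with the WT one, and syngeneic KO libraries held 32.3 to 127 CPM of red cell precursor markers. Here 2 of 10 red cell precursor markers were called lower (median log2 fold change -1.43), 2 of 12 myeloid markers were called higher (median 1.51), and 8 of 10 T-cell markers had positive values with 0 called (median 0.35). Their part was not tested.

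Ndufb7 was called in both genotypes. It had 94.0, 138 and 69.2 CPM in allogeneic KO libraries, against 78.1, 53.8 and 56.1 CPM in syngeneic KO libraries, a log2 fold change of 0.68 ± 0.23 (edgeR adjusted p = 0.0441), with syngeneic KO replicate 1 above allogeneic KO replicate 3. Atp5j, coupling factor 6 of the peripheral stalk of ATP synthase, had 79.9, 102 and 64.1 CPM in allogeneic KO libraries, against 70.0, 54.6 and 43.6 CPM in syngeneic KO libraries, a log2 fold change of 0.55 ± 0.19 (edgeR adjusted p = 0.0467). The groups of Atp5j overlapped in the same way.

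mt-Nd1 had 428, 304 and 472 CPM in allogeneic KO libraries, against 565, 533 and 729 CPM in syngeneic KO libraries, without overlap, a log2 fold change of -0.60 ± 0.17 (edgeR adjusted p = 0.0221). mt-Nd2, called in WT, had 132, 83.4 and 159.8 CPM in allogeneic KO libraries, against 163, 171 and 227 CPM in syngeneic KO libraries, again without overlap (-0.58 ± 0.21, edgeR adjusted p = 0.0596). Cox6a2 and Cox6b2 had -1.49 ± 0.66 and -0.80 ± 0.44 in KO cells and did not pass (edgeR adjusted p = 0.121 and 0.208), and neither did Cox5a (0.55 ± 0.22, edgeR adjusted p = 0.0867), Cox7a1 (0.82 ± 0.47), Atp5a1 (0.18 ± 0.17) or Atp5b (0.03 ± 0.20).

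These KO calls changed with single libraries. Without allogeneic KO replicate 2 no member passed and the nuclear median was 0.01, and without syngeneic KO replicate 1 the calls were 22 higher and 1 lower with a nuclear median of 0.54. With the length trend removed the nuclear median was 0.14. The mitochondrial median was 0.00 without allogeneic KO replicate 2 and -0.53 without allogeneic KO replicate 3. Without allogeneic KO replicate 1, syngeneic KO replicate 2 or syngeneic KO replicate 3 the number called was 1, 1 and 0, and without allogeneic KO replicate 3 it was 18. Leaving out any WT library except allogeneic WT replicate 1, all outside the comparison, left 1. Ndufb7 and Atp5j missed without any of allogeneic KO replicates 1 and 2 and syngeneic KO replicates 2 and 3 (highest edgeR adjusted p 0.152 and 0.172), and mt-Nd1 missed without allogeneic KO replicate 2 or syngeneic KO replicate 3 (highest 0.105). With the 6 KO libraries fitted alone 0 members passed, without allogeneic KO replicate 2 and syngeneic KO replicate 1 together 6 were called higher and 0 lower, and with the length trend removed 6 were called higher and 2 lower.

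Whether the difference between allogeneic and syngeneic cells depended on genotype was tested directly by the interaction of transplant and genotype. It was called for 0 of 88 members (edgeR, lowest adjusted p 1.0), with 0 members at an unadjusted p under 0.05, against 0.477% of all genes called (0.428% higher and 0.0488% lower) and 6.2% at an unadjusted p under 0.05, and DESeq2 also called 0. Cox6b2 had the smallest unadjusted p of the members, with an interaction of 1.04 ± 0.62 on the log2 scale.

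**Figure D4:**
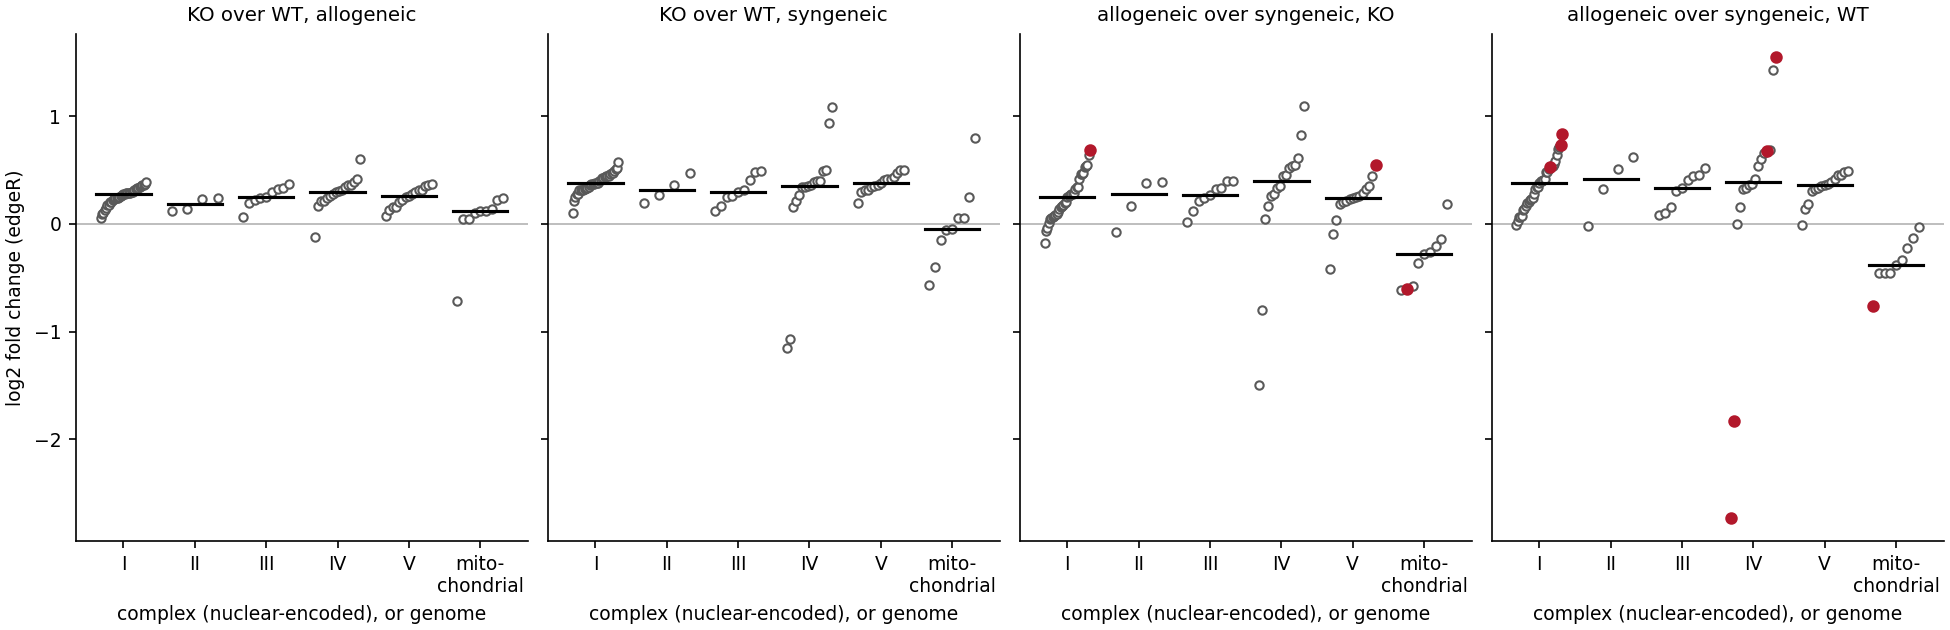
Fitted log2 fold change (y) of each tested member, by complex for the 79 nuclear members and together for the 9 mitochondrial ones (x), in 4 comparisons, with filled points for members called at an adjusted p under 0.05 and bars for the median. Nuclear medians lay above 0 in every panel, and the mitochondrial median lay at -0.38 in allogeneic against syngeneic WT cells and at -0.28 in KO cells.

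KO against WT donor cells asked what loss of Wapl changed within one transplant setting. In the syngeneic setting 0 of 88 members were called (edgeR, lowest adjusted p 0.163), against 3.37% of all genes, 0.743% higher and 2.63% lower, and 6 members had an unadjusted p under 0.05, against 14% of all genes, and DESeq2 also called 0. Values of nuclear subunits leaned upwards in KO cells, with 77 of 79 positive and a median log2 fold change of 0.37, against 0.06 for all genes. The median was 0.37 in complex I, 0.32 in II, 0.30 in III, 0.35 in IV and 0.38 in V, and -0.05 for the mitochondrial members. Lists beside the members, described below, leaned upwards too, to differing degrees. Positive were 76 of 77 mitochondrial ribosome genes (median 0.35), 46 of 48 assembly factors (0.28) and 16 of 17 citric acid cycle genes (0.24). So were 9 of 10 subunits and carriers outside the symbol rule (0.29), 19 of 26 mitochondrial DNA genes (0.11) and 5 of 9 regulators (0.10). Groups did not overlap for 29 members that were higher, against 13.2% of all genes, and for 1 that was lower, against 10.1%. Without syngeneic KO replicate 1 the nuclear median was 0.10, and with the length trend removed it was 0.20. The mitochondrial median was 0.00 without mt-Co2 or without syngeneic KO replicate 1, and 0.08 without syngeneic WT replicate 2. Between the same groups 8 of 10 red cell precursor markers were called lower (median log2 fold change -6.17), 6 of 12 myeloid markers were called lower (median -3.71), and 10 of 10 T-cell markers had positive values with 0 called (median 0.29). Their part in the values of the subunits was not tested.

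The member with the smallest p was mt-Atp8, which encodes a small subunit of the ATP synthase membrane part. It had 16.7, 15.7 and 31.7 CPM in syngeneic KO libraries, against 14.7, 11.4 and 10.8 CPM in syngeneic WT libraries, without overlap, and did not pass (0.80 ± 0.26, edgeR adjusted p = 0.163). Cox6b2 had 1.03, 0.773 and 2.2 CPM in syngeneic KO libraries, against 1.57, 3.25 and 4.09 CPM in syngeneic WT libraries, which overlapped, and did not pass (-1.16 ± 0.43, edgeR adjusted p = 0.233). The subunit c genes Atp5g1 and Atp5g2 followed, at 0.47 ± 0.20 and 0.50 ± 0.21 (edgeR adjusted p = 0.297 and 0.30). Cox5a, Atp5a1 and Atp5b had 0.35 ± 0.22, 0.34 ± 0.17 and 0.31 ± 0.20, none of which passed (edgeR adjusted p = 0.497, 0.396 and 0.491).

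Same-numbered syngeneic KO and WT libraries deviated together from their group means (r = 0.545, 0.17 and 0.335 for numbers 1, 2 and 3). Differently numbered pairs ran from -0.501 (KO 3 with WT 1) to 0.363 (KO 3 with WT 2). Pairing by number is therefore not established, and the calls that follow depend on it. With the replicate number as a block in the 6 syngeneic libraries, 9 members were called higher and 1 lower, against 2.16% and 5.13% of 17656 genes. Named after their values were seen, the 9 were Ndufa13, Ndufa3, Ndufc2 and Ndufs8 of complex I, Cox5b and Cox7c of complex IV and Atp5g1, Atp5g2 and Atp5k of complex V, and the 1 lower was Cox6b2. Ndufa13, a complex I subunit also known as Grim19, had 111, 71.5 and 76.6 CPM in syngeneic KO libraries, against 69.5, 50.9 and 60.4 CPM in syngeneic WT libraries, higher in 3 of 3 pairs.

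In the allogeneic setting KO and WT members were not separated at this spread. 0 of 88 were called (edgeR, lowest adjusted p 0.963), with 0 at an unadjusted p under 0.05, against 0.0542% (0.0434% higher and 0.0108% lower) and 4.18% of all genes, and DESeq2 also called 0. The median was 0.27 for nuclear members, with 78 of 79 positive, and 0.11 for mitochondrial members, against 0.03 for all genes. Of the lists beside the members, 77 of 77 mitochondrial ribosome genes were positive (median 0.22), 40 of 48 assembly factors (0.21) and 16 of 17 citric acid cycle genes (0.14). So were 9 of 10 subunits and carriers outside the symbol rule (0.35), 17 of 26 mitochondrial DNA genes (0.10) and 6 of 9 regulators (0.07). Groups did not overlap for 0 members that were higher, against 3.29% of all genes, and for 1 that was lower, mt-Co2, which is not read here, against 4.37% of all genes. Without allogeneic KO replicate 2 the nuclear median was -0.03 and the mitochondrial median 0.26, and without allogeneic KO replicate 3 they were 0.47 and -0.09. The nuclear median was 0.12 with the length trend removed, and the mitochondrial median was 0.12 without mt-Co2. Cox5a had 63.6, 84.4 and 47.6 CPM in allogeneic KO libraries, against 67.1, 49.5 and 52.0 CPM in allogeneic WT libraries (0.21 ± 0.22). Atp5a1 had 818, 889 and 630.4 CPM in allogeneic KO libraries, against 823, 641 and 631 CPM in allogeneic WT libraries (0.16 ± 0.17), and Atp5b had 0.21 ± 0.20. For these 3 genes the KO range enclosed all WT values.

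Genes that build, feed and regulate the chain were read from lists beside the members, and members of all 6 lists passed in allogeneic against syngeneic cells. Of all genes tested 16.4% rose and 15.9% fell in allogeneic WT cells, and 13.2% rose and 11.2% fell in allogeneic KO cells. Of 48 assembly factors 4 rose and 3 fell in allogeneic WT cells and 5 rose and 3 fell in allogeneic KO cells (edgeR, adjusted p under 0.05), that is 8.33% and 6.25% in WT and 10.4% and 6.25% in KO cells, each below the share of all genes. Lyrm7, a chaperone that helps insert the Rieske protein of complex III, fell by 1.28 ± 0.22 and 1.19 ± 0.22 on the log2 scale in WT and KO cells (log2 fold changes -1.28 and -1.19, edgeR adjusted p = 0.00069 and 0.00155). It had 1.46, 1.29 and 1.39 CPM in allogeneic WT libraries, against 3.64, 3.11 and 3.30 CPM in syngeneic WT libraries. Surf1 and Cox17, a haem and a copper factor of complex IV, rose by 0.91 ± 0.16 and 1.10 ± 0.23 in WT cells and by 0.62 ± 0.16 and 1.16 ± 0.23 in KO cells (edgeR adjusted p between 0.000928 and 0.0137). Coa5, a further complex IV factor, rose by 0.45 ± 0.09 in WT cells (edgeR adjusted p = 0.00208).

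Of 26 tested genes that maintain and express mitochondrial DNA, 0 rose and 5 (19.2%) fell in allogeneic WT cells, against 16.4% and 15.9% of all genes. In allogeneic KO cells 0 rose and 6 (23.1%) fell, against 13.2% and 11.2% of all genes, and the medians were -0.06 and -0.12 in WT and KO cells, against -0.03 and -0.02 for all genes. Lrpprc, which stabilises mitochondrial messages, had 61.6, 52.5 and 59.3 CPM in allogeneic WT libraries, against 88.0, 84.6 and 81.0 CPM in syngeneic WT libraries (-0.55 ± 0.10, edgeR adjusted p = 0.00132), and in KO cells it had -0.52 ± 0.10 (edgeR adjusted p = 0.00263). Polg, the mitochondrial DNA polymerase, had -0.48 ± 0.11 in both genotypes (edgeR adjusted p = 0.00565 in WT and 0.00726 in KO). Polg2, its accessory subunit, fell in WT cells (-0.54 ± 0.15, edgeR adjusted p = 0.0146), and Tbrg4, a regulator of mitochondrial RNA, fell in KO cells (-0.42 ± 0.10, edgeR adjusted p = 0.00891). Whether these falls bear on the lower mitochondrial messages was not tested.

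Among 9 tested regulators of mitochondrial genes, 3 rose and 3 fell in WT cells and 2 rose and 3 fell in KO cells, too few genes for a share to be read. Myc, a growth regulator that drives mitochondrial biogenesis genes, had 85.3, 75.0 and 86.8 CPM in allogeneic WT libraries, against 208, 167 and 196 CPM in syngeneic WT libraries (-1.21 ± 0.15, edgeR adjusted p = 4.89e-05), and -1.30 ± 0.15 in KO cells (edgeR adjusted p = 3.74e-05). The coactivators Ppargc1b and Pprc1, of the PGC-1 family, had -1.32 ± 0.20 and -0.97 ± 0.16 in WT cells and -1.54 ± 0.21 and -1.10 ± 0.16 in KO cells (edgeR adjusted p between 0.000142 and 0.000579). Ppargc1b had 7.65, 8.99 and 7.40 CPM in allogeneic WT libraries, against 22.6, 17.8 and 19.7 CPM in syngeneic WT libraries, which did not overlap. Gabpa, which binds the ETS motif, Sirt3, a mitochondrial deacetylase, and Esrra, the oestrogen-related receptor alpha, were the 3 that rose in WT cells, named here after their values were seen.

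Of 77 tested mitochondrial ribosome genes 7 (9.09%) rose and 0 fell in WT cells, against 16.4% and 15.9% of all genes, and 1 (1.3%) rose and 4 (5.19%) fell in KO cells, against 13.2% and 11.2%. Their medians were 0.21 and 0.15. Mrpl9, of the large subunit, rose in both (0.68 ± 0.16 and 0.63 ± 0.16, edgeR adjusted p = 0.00565 and 0.0118). In the citric acid cycle 3 of 17 (17.6%) rose and 1 (5.88%) fell in WT cells and 1 (5.88%) rose and 2 (11.8%) fell in KO cells, against the same shares of all genes. Idh2, the NADP-dependent mitochondrial isocitrate dehydrogenase, had 20.4, 12.7 and 14 CPM in allogeneic WT libraries, against 39.7, 33.5 and 36.9 CPM in syngeneic WT libraries (-1.22 ± 0.19, edgeR adjusted p = 0.000339), and -1.37 ± 0.19 in KO cells (edgeR adjusted p = 0.000192). Citrate synthase (Cs) rose by 0.44 ± 0.13 in WT cells (edgeR adjusted p = 0.0204), and Idh3a, a subunit of the NAD-dependent enzyme, by 0.48 ± 0.15 and 0.47 ± 0.15 in WT and KO cells (edgeR adjusted p = 0.0281 and 0.0395).

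Of 10 subunits and carriers outside the symbol rule, 3 rose and 0 fell in WT cells, against 16.4% and 15.9% of all genes, and 3 rose and 1 fell in KO cells, against 13.2% and 11.2%. The 3 were Gpd2, Etfb and Etfdh in both genotypes, enzymes that bring electrons to ubiquinone without complexes I and II, and Dhodh, which does the same in pyrimidine synthesis, fell in KO cells (-0.62 ± 0.16, edgeR adjusted p = 0.0154, named after its values were seen). Gpd2, the mitochondrial glycerol-3-phosphate dehydrogenase, had 59.8, 52.9 and 71.3 CPM in allogeneic WT libraries, against 26.9, 30.1 and 29.4 CPM in syngeneic WT libraries (1.09 ± 0.13, edgeR adjusted p = 3.78e-05). It had 88.7, 76.8 and 69.9 CPM in allogeneic KO libraries, against 32.8, 36.2 and 35.1 CPM in syngeneic KO libraries (1.18 ± 0.13, edgeR adjusted p = 2.79e-05). Etfb and Etfdh, which pass electrons from fatty acid oxidation, rose by 1.23 ± 0.22 and 0.49 ± 0.11 in WT cells and by 0.99 ± 0.22 and 0.50 ± 0.11 in KO cells (edgeR adjusted p between 0.00109 and 0.00558). All 12 libraries of these 3 genes kept the allogeneic groups above the syngeneic groups of the same genotype. Between KO and WT cells 0 genes of these 6 lists passed in either setting (edgeR), against 3.37% and 0.0542% of all genes in the syngeneic and allogeneic settings. The lists held 48 assembly factors, 26 mitochondrial DNA genes, 9 regulators, 77 ribosome genes, 17 cycle genes and 10 subunits and carriers tested. Of these, 18 and 2 genes had an unadjusted p under 0.05 in the syngeneic and allogeneic settings, against 14% and 4.18% of all genes.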

How the data were processed

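The deposited table holds expected counts per gene made by the authors. Per the submitters' processing notes the tools were TopHat2 2.0.13, Bowtie2 2.2.1, Cufflinks and Cuffdiff 2.2.1 with GRCm38. The tool that gave the estimated counts, its treatment of reads with several matches and its use of strand are not given in the sources used here. Between 94.5% and 95.0% of the values were whole, and the rest were rounded. Of 18 samples in the labels, 12 transplant libraries were used in 4 groups of 3, described in the series design as independent biological triplicates. The naive samples were not analysed here, and 6 columns of per-sample values were not used. The labels of syngeneic KO name the allogeneic recipient strain under cell type, and these libraries were grouped by their transplant type and title.

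Genes were filtered with filterByExpr (minimum count 10), scaled by TMM and tested by edgeR's quasi-likelihood test across all 12 libraries, with Benjamini-Hochberg adjustment over 18447 genes and a threshold of 0.05. CPM and RPKM were computed from the counts, RPKM with the union of annotated exons (GENCODE M21), which matched 96 of 97 members. The tools were R 4.3.3, edgeR 4.0.16, limma 3.58.1, DESeq2 1.42.0, Python 3.11.15, Biopython 1.88 and matplotlib 3.10.9. The fit was tried on simulated counts with known changes, larger than most values of the members and in genes drawn independently. It does not show how well smaller changes of genes that move together are found. Ranges of floors cover counting error only.

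Alternatives were DESeq2, its size factors, no filter, ribosomal and mitochondrial genes left out of library sizes, a replicate block, only the compared groups, and each library left out. Added after seeing the data were 2 libraries left out together, removal of a length trend, and a block within the syngeneic libraries. Same-numbered syngeneic KO and WT libraries correlated at r = 0.545, 0.17 and 0.335 in their deviations from the group means. Each lay over 0.1, the criterion used for pairing. KO 3 with WT 2 (0.363) and KO 2 with WT 3 (0.114) also lay over 0.1, so the criterion does not establish pairing by number. The other differently numbered pairs were negative (-0.206 to -0.501). Deviations from a group mean cancel out within the group, so these negative values are not separate evidence of pairing. The pairing comes from the numbers in the titles alone. For other pairs of groups the criterion was not met.

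Named genes were the markers Cox5a, Atp5a1 and Atp5b, the mitochondrial genes, the called members with the smallest p, the extremes of each complex, restricted isoforms and their partners, complex II, Cyc1 and Uqcrfs1, and up to 3 called genes of each pathway list in a comparison. Members and lists were chosen with earlier results of these data known. B-cell and platelet markers summed to 12.0 to 24.6 and 1.82 to 8.08 CPM over all libraries. The values of 1 called member are not reported here.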

Additional observations from a re-analysis of the deposited data

How the results depend on the processing

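Counts of called members moved most. In allogeneic against syngeneic WT cells (8 called) the count was 14 with the replicate block, 16 with DESeq2, 22 with the length trend removed, and 47 both with only the 2 groups fitted and without allogeneic KO replicate 2 and syngeneic KO replicate 1, and it ran between 2 and 28 with single libraries left out. In KO cells (3 called) it was 0 with only the 2 groups, 8 with the length trend removed, 6 without both libraries and 0 to 23 with single libraries left out. In syngeneic KO against WT cells (0 called) the replicate block over 12 libraries gave 0 and the block within the 6 syngeneic libraries 10. Apart from these 2 comparisons the block moved no count by over 1.5 times. The mitochondrial median in allogeneic against syngeneic KO cells (-0.28) ran between -0.532 and 0.00166 with single libraries left out. Leaving out mt-Co2 moved no mitochondrial median by more than the spread between libraries. The cause of these shifts was not tested.

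Values near 0 changed sign. Without the filter, allogeneic against syngeneic WT values were 0.0091 for Atp5g1, 0.0207 for Cox7a2l, 0.0105 for Ndufa5 and 0.0044 for Sdha, and without both libraries 0.0041, 0.0167, 0.0043 and 0.0001. Removing the length trend gave -0.0263 for Cyc1, -0.0197 for Ndufa4 and -0.1087 for Uqcrb. Cox5a in allogeneic KO against WT was -0.0276 without both libraries and -0.0282 to 0.3976 with single libraries left out. With single libraries left out, the WT comparison ran between -0.0014 and 0.2291 for Atp5b, -0.1682 and 0.0877 for Atp5g1, -0.1333 and 0.1578 for Cox7a2l, -0.0591 and 0.2003 for Cyc1, -0.0112 and 0.2417 for Ndufa4, -0.1195 and 0.0411 for Ndufa5, -0.0599 and 0.0541 for Sdha, -0.001 and 0.2053 for Uqcrb and -0.1146 and 0.1249 for mt-Atp8, and the KO comparison between -0.081 and 0.2574 for Atp5b. Depth did not limit the common subunits, but Cox6a2 and Cox7a1 lay under 1 CPM.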
